A study of Mus musculus with 27 samples.

Results

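Mitochondrial ribosomal protein genes are the nuclear genes whose symbols begin with Mrpl, for the large subunit, or Mrps, for the small subunit, of the ribosome inside mitochondria. They were taken from the expression table as the symbols made of Mrpl or Mrps followed by a number, with an FPKM above 0 in at least 3 kidneys. FPKM is a count of fragments divided by transcript length and by the number of fragments mapped, so that levels of different genes can be set beside each other. The rule found 78 of the 19392 genes in the table, 49 named for the large subunit and 29 for the small, and all 78 were above 0 in all 27 kidneys. The lowest value in any kidney was 4.67 FPKM, so that no member was lost to the filter.

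The mitochondrial ribosome makes the few proteins that mitochondrial DNA still encodes, all of them membrane subunits of the respiratory chain and the ATP synthase. Its ribosomal RNAs come from mitochondrial DNA, but every one of its proteins is encoded in the nucleus, made in the cytosol and imported. Some of its proteins descend from those of the bacterial ribosome, and others have no bacterial counterpart and arose within eukaryotes. Kidney tubules, the proximal tubule above all, are dense in mitochondria, because the reabsorption of salt and solutes runs on oxidative metabolism.

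Left kidneys of 27 wild-type C57BL/6 mice were sequenced, 3 for every ischemia time: 0, 16, 18, 20, 22, 24, 26, 28 or 30 min. In every mouse, the 0 min group included, the right kidney was removed while the mouse lay on a heating platform, and the left kidney was taken for RNA-Seq 24 h later. The groups differed in how long the pedicle of the left kidney was clipped, a model called uIRIx, and the 0 min group was the sham control. Each group therefore shows 1 time after reperfusion in mice left with 1 kidney, and the age and sex of the mice were not given in the labels. The comparisons ask how far the members moved at each ischemia time from 0 min, and between neighbouring stages of injury.

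FPKM values summed to between 512453 and 554036 per kidney with a median of 540865, and the numbers of reads behind them are unknown. Each of the 3 kidneys of a group is listed as a separate replicate. The third kidney of the 30 min group stood apart from the others for these genes. Its median member lay at -0.08 on the log2 scale from the 0 min mean, against 0.17 and 0.14 in the first and second kidneys, and counts of the 30 min group are given with and without it. The third kidney of the 16 min group stood apart as well, though less for these genes. Its median member lay at 0.06, against 0.17 and 0.10, and its median cytosolic ribosomal protein gene at 0.05, against 0.35 and 0.44. The sum of 3 injured tubule markers ran from 68.5 to 999.9 FPKM in the 16 min kidneys and from 12.2 to 86.8 FPKM in the 0 min kidneys, so that these groups overlapped. Markers fixed for kidney cell types were found in all 27 kidneys: 10 proximal tubule genes summed to 5174 to 5658 FPKM at 0 min, 2 muscle genes to at most 0.82 FPKM in any kidney, and 2 liver genes to at most 6.19 FPKM. In a whole kidney, fewer cells of a type and less RNA per cell cannot be told apart.

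Mean levels of the members over all 27 kidneys ran from 5.77 to 237 FPKM, a 41.1-fold range, with a median of 45.0. The large subunit genes had a median of 45.4 FPKM and the small subunit genes of 44.6 FPKM. Mrps21, the homolog of bacterial S21, was the highest of all at 237 FPKM, followed by Mrpl12, the stalk protein that receives translation factors, at 222 FPKM, and Mrpl42, which has no bacterial homolog, at 195 FPKM. Mrpl52 at 160 FPKM, Mrps6 at 132 FPKM and Mrpl34 at 119 FPKM came next. The lowest levels were those of Mrpl1, a protein of the mobile L1 stalk, at 11.5 FPKM, Mrpl17 at 8.93 FPKM and Mrpl19 at 5.77 FPKM. Within the small subunit, Mrps25 at 12.1 FPKM and Mrps14 at 15.6 FPKM were the lowest. The 78 levels thus differed far more between genes than any gene differed between kidneys: the typical spread among kidneys of 1 group was 0.10 on the log2 scale, and the typical spread among the 9 group means was 0.10 as well. For 36 of the 78 members the spread among group means exceeded that among kidneys of a group.

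Summed over the subunit, large subunit levels averaged 2363 FPKM at 0 min (range of 3 kidneys 2285 to 2406), 2786 FPKM at 16 min (2556 to 2933) and 2809 FPKM at 26 min (2710 to 2988). They averaged 3090 FPKM at 28 min (3010 to 3221) and 2734 FPKM at 30 min (2407 to 2908). The sums of all ischemic kidneys lay above those of the 0 min kidneys, and the lowest of them, 2407 FPKM in the third 30 min kidney, only just did. Small subunit sums averaged 1403 FPKM at 0 min (1338 to 1445), 1607 FPKM at 16 min (1480 to 1752), 1551 FPKM at 26 min (1494 to 1636), 1617 FPKM at 28 min (1583 to 1640) and 1516 FPKM at 30 min (1467 to 1541). The ratio of large to small subunit sums was 1.66 to 1.71 at 0 min and 1.87 to 1.96 at 28 min, so that these groups did not overlap. At 30 min the ratio was 1.89, 1.87 and 1.64 in the 3 kidneys. These ratios carry no test, and Mrpl33 and Mrpl52, described further on, make up part of the large subunit sum.

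**Figure D1:**
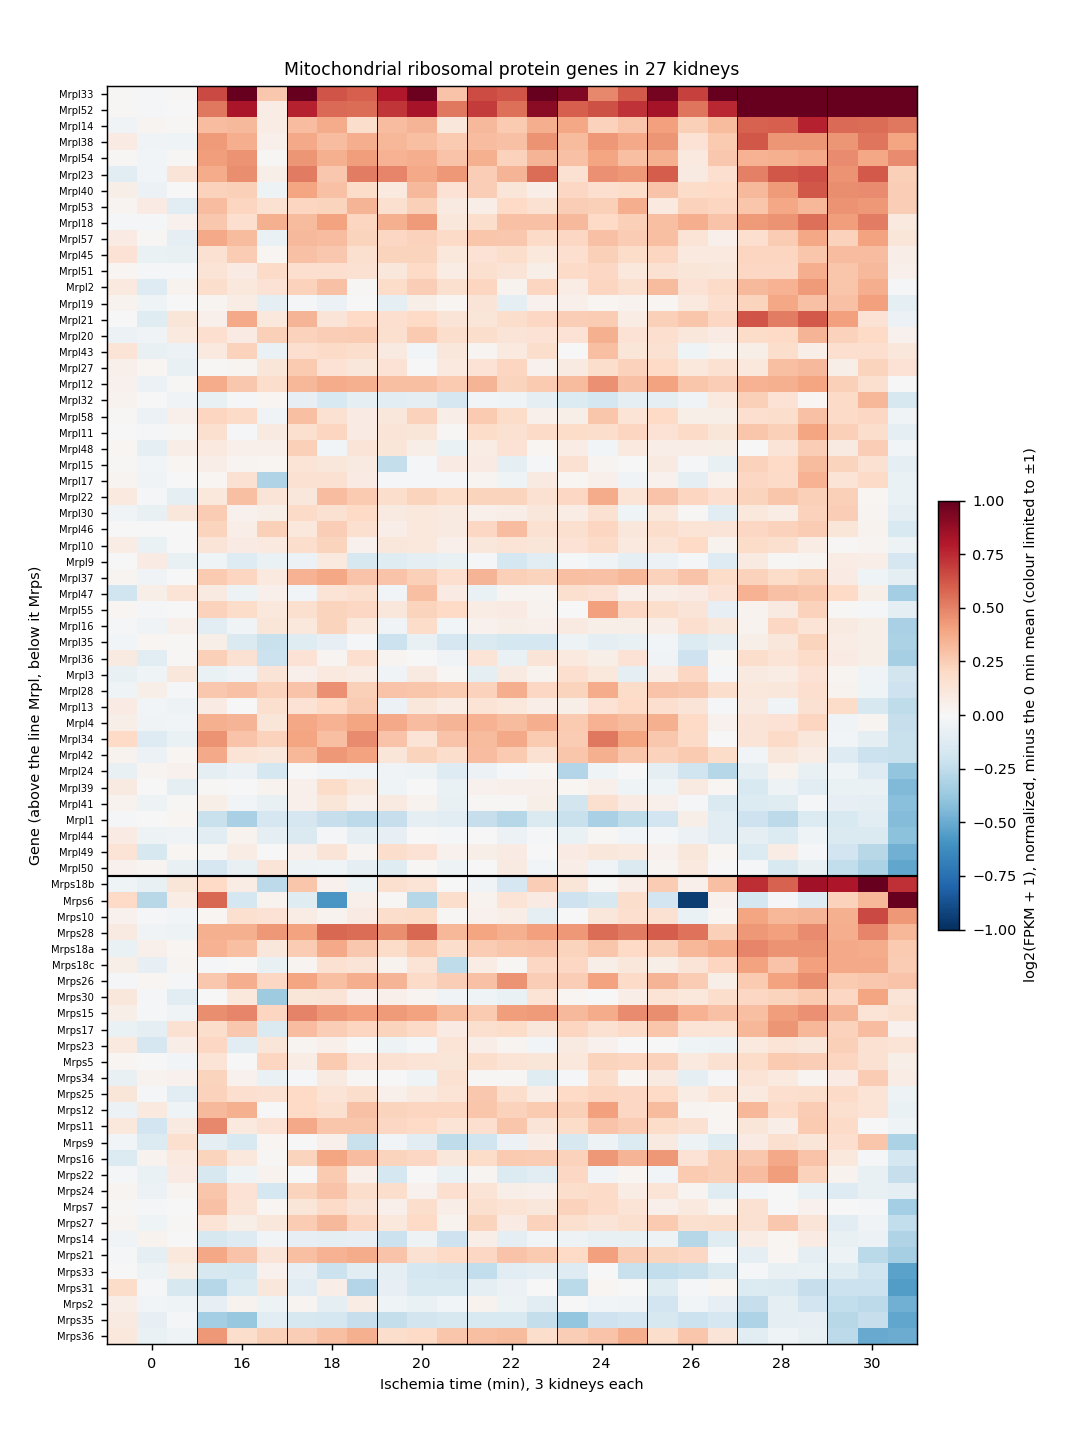
Heat map of the 78 members (rows, Mrpl above the line and Mrps below it, each ordered by the log2 difference of 30 min from 0 min) in the 27 kidneys (columns, 3 per ischemia time), where color gives the log2 difference from the 0 min mean after normalization, limited to 1 in either direction. Most rows are pale red at all ischemia times, Mrpl33 and Mrpl52 are deep red at 28 and 30 min, and the lowest rows of each block turn blue at 30 min, most of all in the third kidney of that group.

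Differences between groups were tested gene by gene with limma on quantile normalized log2(FPKM + 1) values across 18188 genes. A gene was called higher or lower where the Benjamini-Hochberg adjusted p was under 0.05, and the fold changes understate those of genes at low levels because of the added 1. Already after 16 min of ischemia, 21 of the 78 members were called higher and 2 lower than at 0 min, or 26.9% and 2.56%, where 9.43% of all genes tested were higher and 9.61% lower. The median member differed by 0.11 on the log2 scale and the median gene by 0.00. Quantile normalization gives every kidney the same distribution of values, which holds the median gene near 0. Without this step, the median member differed by 0.176 and the median gene by 0.045. Without the third 16 min kidney, 27 members were higher and 2 lower, against 13.7% and 14.8% of all genes. Fitted on the 6 kidneys of 0 and 16 min alone, 0 members were called, with 0.033% of all genes higher and 0.055% lower and 23 members at an unadjusted p under 0.05, so that each 16 min call named further on rests on the spread shared by all 27 kidneys. After 18 min, 36 members were higher and 1 lower, against 12.6% and 15.2% of all genes, and the median member differed by 0.17. After 20 min, 18 were higher and 0 lower, against 10.7% and 12.1% of all genes. After 22 min, 26 were higher and 1 lower, against 13.4% and 15.4% of all genes. After 24 min, 30 were higher and 2 lower, against 13.6% and 14.8% of all genes. After 26 min, 21 were higher and 0 lower, against 14.9% and 15.2% of all genes, with a median of 0.13. From 16 to 26 min, members were therefore called higher more often than the genes of the table, and lower less often, as shares that were not tested against each other. Fold changes were small: apart from Mrpl33 and Mrpl52, no member differed by more than 0.51 on the log2 scale at these times.

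After 28 min, 41 members were called higher and 2 lower than at 0 min, 52.6% and 2.56%, where 24.5% of all genes were higher and 23.6% lower. The median member differed by 0.20. After 30 min, 24 members were higher and 13 lower, 30.8% and 16.7%, where 26.9% of all genes were higher and 25.4% lower, so that the share of higher members came close to that of all genes. The median member differed by 0.08. With a filter of 1 FPKM in at least 3 kidneys, which all 78 members passed, 24 members were higher and 12 lower. Of the 12929 genes passing it, 33.2% were higher and 30.7% lower, so that the share of higher members lay below theirs. Without the third kidney of the 30 min group, 32 members were higher and 7 lower, with a median of 0.16, where 26.1% of all genes were higher and 23.9% lower, so that the higher share was then above that of all genes. The split at 30 min also moved with the scaling. When quantile normalization was left out, 30 members were higher and 8 lower (32.4% and 20.4% of all genes), and when FPKM was rescaled to TPM, which gives every kidney the same total, 32 were higher and 9 lower (32.5% and 20.3% of all genes). Fitted on the kidneys of 0 and 30 min alone, 14 members were higher and 5 lower, against 21.8% and 20.2% of all genes. In fits of only the 2 times compared, of the members named further on, the 30 min calls of Mrpl1, Mrpl44, Mrpl45, Mrps15, Mrps21, Mrps30 and Mrps31, the 28 min call of Mrpl10 and the 26 min call of Mrps36 were lost. With a pseudocount of 0.1, the 28 min calls of Mrpl10, Mrpl58 and Mrps30 were lost. By subunit, 27 of 49 large subunit genes were higher and 1 lower at 28 min, and 14 of 29 small subunit genes were higher and 1 lower. At 30 min these counts were 14 and 7 for the large subunit and 10 and 6 for the small.

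The comparisons with 0 min share its 3 kidneys, and leaving out a kidney of that group or another changed several counts. The 23 calls at 16 min became 6 without the first 16 min kidney, all higher, where 6.09% of all genes were higher, a share near that of the members. They became 9 without the second 16 min kidney, all higher (4.51% of all genes higher). Without the second 0 min kidney there were 7 higher and 1 lower (4.87% and 5.33% of all genes). Without the third 0 min kidney there were 14 higher and 1 lower (7.44% and 8.54%). The 37 calls at 18 min became 22 without the second 0 min kidney (8.86% of all genes higher) and 24 without the second 18 min kidney (10.3%), all of them higher. The 18 calls at 20 min became 10 without the first 20 min kidney (6.76% of all genes higher). Without the second 0 min kidney, the 27 calls at 22 min became 17 (9.72%) and the 21 calls at 26 min became 13 (11.5%). These were all higher too, and the shares of all genes were below those of the full fit. The total of calls at 24, 28 or 30 min against 0 min did not move by more than 1.5 times in this way. At 30 min, however, the 13 lower members became 7 without the third 30 min kidney (23.9% of all genes lower). The 24 higher members became 16 without the second 0 min kidney (24.3% of all genes higher).

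**Figure D2:**
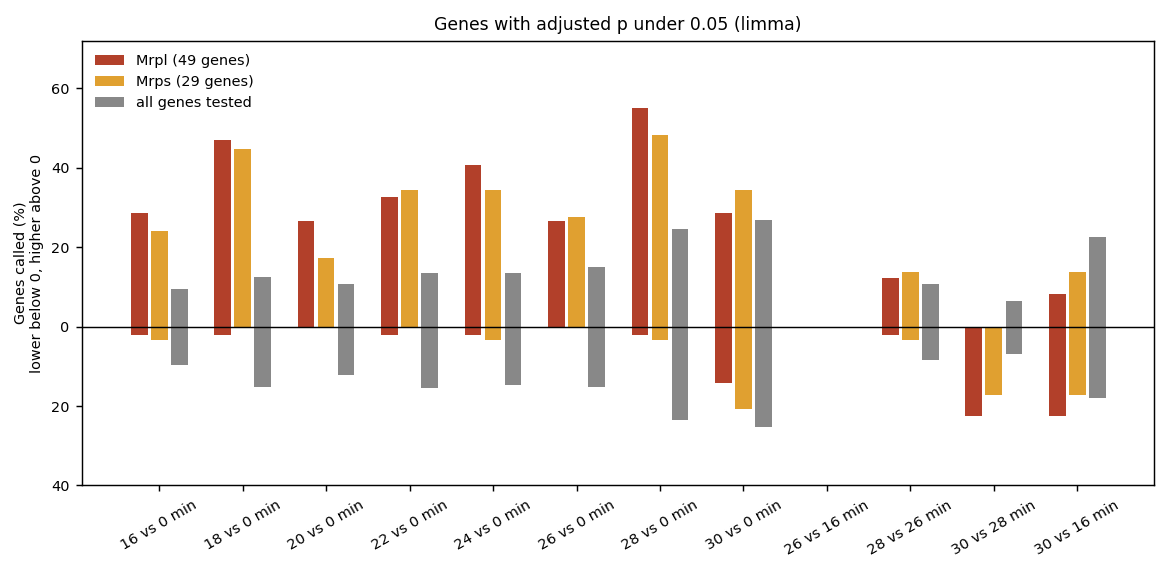
Bars give the percent of genes called higher (above 0) or lower (below 0) at an adjusted p under 0.05 in each of 12 comparisons, for the 49 Mrpl genes, the 29 Mrps genes and all genes tested. The gray bars hold all 18188 genes tested, of which 12929 pass a filter of 1 FPKM in at least 3 kidneys. The member bars exceed the gray bars above 0 in all 8 comparisons with 0 min, by least at 30 min, and lie below 0 chiefly at 30 min; no gene was called between 26 and 16 min.

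Among the large subunit members, Mrpl33 moved the most. Mrpl33 is the homolog of bacterial L33, a small protein near the exit site for transfer RNA. Its 0 min kidneys had 41.9, 41.2 and 43.2 FPKM, and its 16 min kidneys had 71.4, 89.0 and 52.2 FPKM. From 18 to 26 min the 15 kidneys lay between 55.4 and 98.3 FPKM. The 28 min kidneys had 167, 141 and 159 FPKM, and the 30 min kidneys 164, 179.7 and 129 FPKM. All 24 ischemic kidneys lay above the 3 sham kidneys, and all 6 kidneys of 28 and 30 min lay above all others. The log2 difference from 0 min was 0.64 (SE 0.19, adjusted p = 0.0245) at 16 min, 0.88 (adjusted p = 0.00165) at 26 min, 1.85 (adjusted p = 2.02e-07) at 28 min and 1.92 (adjusted p = 6.63e-08) at 30 min. The call at 16 min was lost without any of the 3 sham kidneys or without the first or second 16 min kidney, with differences of 0.46 to 0.65. Between 30 and 28 min the difference was 0.07, with a 95% interval from -0.33 to 0.47.

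Mrpl52, a large subunit protein with no bacterial homolog, followed the same course at a higher level. Its 0 min kidneys had 92.8, 91.9 and 94.8 FPKM, its 28 min kidneys 207, 223 and 248 FPKM, and its 30 min kidneys 220.4, 211 and 181 FPKM. The 16 min kidneys were spread, at 141, 167 and 98.7 FPKM. Ischemic kidneys were all above sham kidneys, and those of 28 and 30 min were above all others. Mrpl52 rose by 0.47 on the log2 scale at 16 min (SE 0.13, adjusted p = 0.0159), a call lost without the second 0 min kidney or the first or second 16 min kidney (0.30 to 0.47). It rose by 1.29 at 28 min (adjusted p = 1.68e-07) and 1.22 at 30 min (adjusted p = 1.8e-07). Mrpl33 and Mrpl52 were the only members to meet the criterion used in the study for differentially expressed genes, an absolute log2 fold change above 1 with an adjusted p under 0.05. They did so at 28 min, where 4.27% of all genes met it in the upward direction, and at 30 min, where 5.14% did. Against 16 min, 30 min gave 1 such member, Mrpl33, at 1.28 (adjusted p = 2.24e-05), where 2.56% of all genes met it upward.

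Because these genes moved in their own way, their promoters are shown beside those of Mrps18b, which rose only from 28 min in these tests, and Mrps36, which fell. Each line is the RefSeq window from 250 bases before to 50 bases after the gene start on build GRCm38.p6, read 5′ to 3′ on the strand of the gene, with capitals for any match to 4 sequences searched for on both strands. The sequences were the core of the NRF1 site, GCATGCGC, the core of the ETS site bound by GABP, CCGGAAGT, the core of the YY1 site, AAGATGGCG, and the E-box, CACGTG, factors known for mitochondrial genes or for growth. The windows are chr5:31613701-31614000 on the plus strand for Mrpl33, chr14:54426659-54426958 on the plus strand for Mrpl52, chr17:35916391-35916690 on the minus strand for Mrps18b and chr13:100744610-100744909 on the minus strand for Mrps36.
Mrpl33: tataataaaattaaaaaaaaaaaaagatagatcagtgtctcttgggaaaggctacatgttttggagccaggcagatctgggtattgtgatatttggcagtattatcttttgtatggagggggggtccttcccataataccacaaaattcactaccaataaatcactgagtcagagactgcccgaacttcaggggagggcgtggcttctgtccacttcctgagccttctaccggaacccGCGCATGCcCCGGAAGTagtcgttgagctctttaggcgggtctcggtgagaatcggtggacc
Mrpl52: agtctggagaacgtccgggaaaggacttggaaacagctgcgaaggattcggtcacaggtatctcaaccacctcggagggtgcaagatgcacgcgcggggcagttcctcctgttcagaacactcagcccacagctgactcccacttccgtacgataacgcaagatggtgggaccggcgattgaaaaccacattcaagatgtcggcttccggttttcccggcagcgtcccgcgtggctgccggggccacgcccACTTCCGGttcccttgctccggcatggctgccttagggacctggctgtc
Mrps18b: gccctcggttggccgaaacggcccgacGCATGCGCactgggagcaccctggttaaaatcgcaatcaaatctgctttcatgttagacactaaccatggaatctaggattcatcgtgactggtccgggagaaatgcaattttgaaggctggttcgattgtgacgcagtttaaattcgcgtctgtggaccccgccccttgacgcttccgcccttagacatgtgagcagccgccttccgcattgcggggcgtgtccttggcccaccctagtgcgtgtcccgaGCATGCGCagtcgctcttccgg
Mrps36: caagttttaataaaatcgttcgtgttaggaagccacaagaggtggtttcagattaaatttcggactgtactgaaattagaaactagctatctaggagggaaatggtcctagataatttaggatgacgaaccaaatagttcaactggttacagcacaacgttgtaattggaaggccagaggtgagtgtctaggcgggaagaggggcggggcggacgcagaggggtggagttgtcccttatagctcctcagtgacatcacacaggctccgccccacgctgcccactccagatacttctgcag

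The Mrpl33 window held an NRF1 core (as its reverse complement) at base 239 and an ETS core at base 248 of its 300 bases, close to the gene start. That of Mrpl52 held an ETS core (reverse complement) at base 252, and that of Mrps18b an NRF1 core at base 28 and another at base 279. The Mrps36 window held none of these letters, and no matches shown overlap each other. A window was given for 69 of the 78 members. Of these 69, 12 or 17.4% held the ETS core, against 6.77% of 14251 other genes tested. The NRF1 core was found in 8 members or 11.6%, against 4.61% of other genes, and the YY1 core in 8 or 11.6%, against 2.56%. By name, 7 of 43 large subunit genes (16.3%) and 1 of 26 small subunit genes (3.85%) held the NRF1 core. The small subunit share was thus below that of other genes. For the YY1 core the shares were 9.3% and 15.4%, and for the ETS core 18.6% and 15.4%. The E-box was found in 5 members or 7.25%, against 10.1%. At least 1 of the 4 sequences was found for 40.6% of these 69 members (46.5% of large and 30.8% of small subunit genes) and 21.5% of the other genes. The GC content was 59.0% in the windows of members and 58.6% in those of other genes. The median count of CG, a C followed by a G, was 21 per member window and 16 per other window. Each of the 4 sequences holds a CG, and the part of this difference in the shares was not tested. A match is a run of letters and not a shown binding site. In the GENCODE M21 annotation of the same build, the genes lie on chromosome 5 from 31596935 to 31664384 (Mrpl33), chromosome 14 from 54426909 to 54429756 (Mrpl52), chromosome 17 from 35910379 to 35916389 (Mrps18b) and chromosome 13 from 100735955 to 100744659 (Mrps36). The RefSeq start of Mrpl33 lies within the longer GENCODE gene of that name. The whole Mrps18b window, its NRF1 core at base 279 included, lies before the GENCODE start of that gene.

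**Figure D3:**
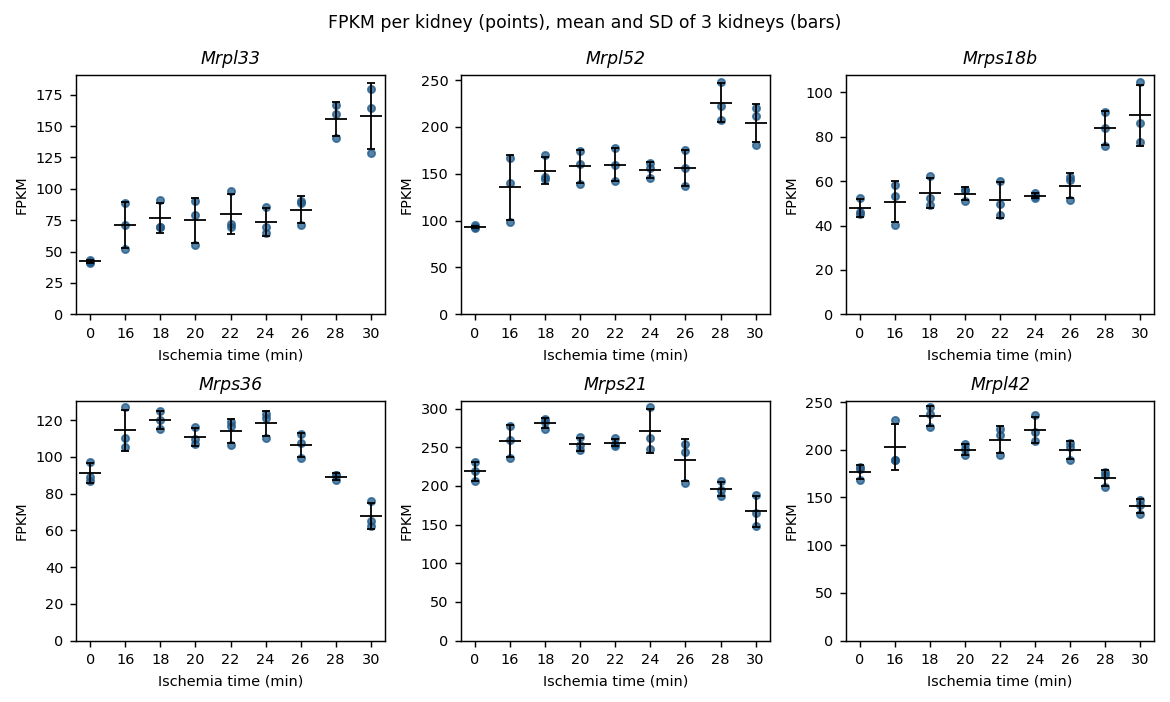
FPKM (vertical axes, from 0) in each of 3 kidneys (points) at 9 ischemia times in min (horizontal axes), with mean and SD as bars, for 6 members. Mrpl33, Mrpl52 and Mrps18b step up between 26 and 28 min, to 156, 226 and 83.8 FPKM on average, while Mrps36, Mrps21 and Mrpl42 are above sham from 16 to 24 min and are lowest at 30 min.

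Other large subunit members rose by smaller amounts. Mrpl14, which lies at the face where the subunits meet, had 47.6, 49.4 and 49.9 FPKM at 0 min, 78.6, 77.9 and 89.2 FPKM at 28 min and 74.3, 75.6 and 69.4 FPKM at 30 min. Its groups did not overlap, and it was higher by 0.65 at 28 min (SE 0.07, adjusted p = 5.11e-07) and 0.55 at 30 min (adjusted p = 2.57e-06). Exons of Mrpl14 share 106 bases with Tmem63b on the opposite strand, and whether reads were counted by strand is not given in the sources used here. Mrpl23, whose bacterial homolog lies at the exit of the protein tunnel, was higher by 0.59 at 28 min (SE 0.13, adjusted p = 0.000983) and by 0.44 at 30 min (adjusted p = 0.00884, and 0.0553 without the second 30 min kidney). Mrpl21 had 31.8, 28.9 and 35.2 FPKM at 0 min, 52.3, 48.5 and 52.7 FPKM at 28 min and 44.3, 36.7 and 31.7 FPKM at 30 min. It rose by 0.58 at 28 min (SE 0.10, adjusted p = 4.56e-05) and differed by 0.17 from sham at 30 min (adjusted p = 0.162).

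The stalk proteins Mrpl10, Mrpl11 and Mrpl12 form the arm of the large subunit that recruits translation factors. Mrpl12 had 195, 178 and 191 FPKM at 0 min, 223, 226 and 241 FPKM at 28 min and 199, 196 and 161 FPKM at 30 min. It was higher than sham at each of 16 to 28 min, by 0.27 to 0.37, without overlap of the groups, and by 0.13 at 30 min (adjusted p = 0.0719), where the groups overlapped. Mrpl11 was higher by 0.30 at 28 min (SE 0.06, adjusted p = 0.000498) and by 0.11 at 30 min (adjusted p = 0.162). Mrpl10 was higher by 0.14 at 28 min (SE 0.05, adjusted p = 0.0251), a call lost without the second or the third sham kidney or the first or second 28 min kidney (0.10 to 0.14), and differed by -0.01 at 30 min (adjusted p = 0.961).

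Mrpl45, which anchors the ribosome at the inner membrane by the tunnel exit, was higher by 0.24 at 28 min (SE 0.07, adjusted p = 0.00871) and 0.23 at 30 min (adjusted p = 0.0101), the latter lost without the second or the third sham kidney or the first or second 30 min kidney (0.19 in each case). Mrpl58, a rescue factor related to release factors that is built into the large subunit, was higher by 0.21 at 28 min (SE 0.08, adjusted p = 0.0419) and by 0.12 at 30 min (adjusted p = 0.254); the call at 28 min was lost without any of the kidneys compared except the third sham kidney (0.17 to 0.23). Mrpl17 and Mrpl19, the members of lowest level, had 28 min differences of 0.25 (adjusted p = 0.0169) and 0.30 (adjusted p = 0.0077). The Mrpl17 call was lost without the second sham kidney (0.23) or the third 28 min kidney (0.20), and 36.0% of the exon bases of Mrpl19 lie in exons of Gcfc2 on the opposite strand.

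Several large subunit genes were lower at the longest ischemia. Mrpl50, a protein with no bacterial homolog, had 47.5, 46.9 and 44.3 FPKM at 0 min, 47.7, 43.7 and 46.7 FPKM at 28 min and 40.3, 38.2 and 32.6 FPKM at 30 min. All 3 of the 30 min kidneys were below all sham kidneys, and Mrpl50 was lower by -0.36 (SE 0.07, adjusted p = 0.000324) at 30 min and differed by -0.08 at 28 min (adjusted p = 0.388). Mrpl44, related to ribonuclease III and mutated in a human heart muscle disease, had 25, 22.9 and 23.8 FPKM at 0 min and 23.1, 22.7 and 19.0 FPKM at 30 min. Its groups overlapped, and it was lower by -0.23 at 30 min (SE 0.06, adjusted p = 0.00262), a call lost without quantile normalization (-0.15). Mrpl42 was higher than sham by 0.21 at 16 min (adjusted p = 0.0189) and 0.39 at 18 min (adjusted p = 0.000131) and lower by -0.19 at 30 min (SE 0.06, adjusted p = 0.0121). Its kidneys had 182, 168 and 179.6 FPKM at 0 min, 231, 189.5 and 189 FPKM at 16 min and 147, 142 and 133 FPKM at 30 min, without overlap between any of these groups. Its 16 min call was lost without the second sham kidney (0.18), without the first 16 min kidney (0.13) or without quantile normalization (0.20). Mrpl34, the homolog of bacterial L34, was higher by 0.32 at 16 min (adjusted p = 0.0157; 0.26 to 0.29 and not called without the second or the third sham kidney or the first 16 min kidney) and differed by -0.12 at 30 min (adjusted p = 0.297). Mrpl1 was called lower at 16, 18, 22, 24, 28 and 30 min, by -0.20 to -0.27, but at none of them without quantile normalization or on the TPM scale (-0.06 to -0.15).

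Among the small subunit members, Mrps18b moved the most. Of its exon bases, 30.5% lie in exons of Gm16279 on the opposite strand, a gene absent from the expression table. Mrps18b belongs to a small family of proteins related to bacterial S18, of which Mrps18a sits in the large subunit in the known structures. Its 0 min kidneys had 46.2, 45.2 and 52.5 FPKM, its 26 min kidneys 60.6, 51.4 and 61.9 FPKM, its 28 min kidneys 84.1, 75.97 and 91.3 FPKM and its 30 min kidneys 86.2, 105 and 77.8 FPKM. The 21 kidneys of 0 to 26 min lay between 40.3 and 62.2 FPKM, and the 6 kidneys of 28 and 30 min lay above all of them. It differed by 0.20 at 26 min (95% interval -0.06 to 0.46, adjusted p = 0.242), and it rose by 0.72 at 28 min (SE 0.12, adjusted p = 6.6e-05) and 0.87 at 30 min (adjusted p = 5.49e-06).

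Mrps10, the homolog of bacterial S10, had 26.2, 25.3 and 25.8 FPKM at 0 min, 36.7, 35.6 and 36.1 FPKM at 28 min and 35.1, 43.1 and 35.9 FPKM at 30 min. The groups did not overlap, and Mrps10 rose by 0.36 at 28 min (SE 0.07, adjusted p = 0.000373) and 0.48 at 30 min (adjusted p = 1.1e-05). Mrps15 and Mrps28 were among the members with the largest increases from 16 min on. Mrps15, the homolog of bacterial S15, had 53.1, 49.9 and 50.3 FPKM at 0 min and 75.4, 76.5 and 59.97 FPKM at 16 min, a difference of 0.39 (SE 0.07, adjusted p = 0.00105). At 30 min it was higher by 0.21 (adjusted p = 0.0184), a call lost without the second or the third sham kidney or the first 30 min kidney (0.15 to 0.20). Mrps28 had 23.1, 21.2 and 21.5 FPKM at 0 min, 30.0, 30.4 and 30.9 FPKM at 16 min and 30.1, 32.5 and 28.96 FPKM at 30 min. Its ischemic kidneys were all above its sham kidneys, with differences of 0.38 (SE 0.08, adjusted p = 0.00196) at 16 min, 0.44 (adjusted p = 8.4e-05) at 28 min and 0.39 (adjusted p = 0.000212) at 30 min.

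Mrps18a and Mrps30 carry small subunit names but are placed in the large subunit in the known structures. Mrps18a rose at all ischemia times, by 0.26 at 16 min (SE 0.05, adjusted p = 0.00274), 0.46 at 28 min (adjusted p = 7.95e-07) and 0.34 at 30 min (adjusted p = 2.45e-05). Mrps30 was higher by 0.23 at 28 min (SE 0.09, adjusted p = 0.038) and 0.25 at 30 min (adjusted p = 0.0253), and both calls were lost without the second or the third sham kidney (0.17 to 0.24), that at 28 min also without any of its own 3 kidneys (0.21 to 0.24) and that at 30 min without the second 30 min kidney (0.17). Counted by structure and not by name, 29 of 51 large subunit members were higher and 1 lower at 28 min, and 12 of 26 small subunit members were higher and 1 lower.

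Mrps12, the protein of the decoding centre, was higher by 0.26 at 28 min (SE 0.09, adjusted p = 0.0201), a call lost without the first or the third sham kidney or the first 28 min kidney (0.22 to 0.24), and differed by 0.08 at 30 min (adjusted p = 0.508). Mrps22, mutated in a human mitochondrial disease, had 20.4, 19.7 and 22.5 FPKM at 0 min, 28.3, 31.0 and 27.3 FPKM at 28 min and 22.9, 20.9 and 18.9 FPKM at 30 min. It stood above sham only in part of this course: higher by 0.32 at 28 min (SE 0.09, adjusted p = 0.00588) and differing by -0.09 at 30 min (adjusted p = 0.457). Mrps34, also linked to mitochondrial disease, differed by 0.09 at 28 min (95% interval -0.07 to 0.25, adjusted p = 0.369) and 0.14 at 30 min (95% interval -0.02 to 0.29, adjusted p = 0.141). Of the exon bases of Mrps34, 63.4% lie in exons of Mapk8ip3 on the opposite strand and 37.0% in exons of Nme3 on the same strand, so that its level is uncertain. Mrps25, which has 69.8% of its exon bases in exons of Nr2c2 on the opposite strand, is uncertain for the same reason.

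The small subunit members that were lower at 30 min included Mrps2, Mrps35 and Mrps31. Mrps2, the homolog of bacterial S2, had 30.6, 28.5 and 28.9 FPKM at 0 min and 26.2, 25.4 and 21.9 FPKM at 30 min, without overlap. It was lower by -0.33 at 30 min (SE 0.06, adjusted p = 0.000112) and by -0.17 at 28 min (adjusted p = 0.024), the latter not called without quantile normalization (-0.05), on the TPM scale (-0.06) or without the first sham or the first or the third 28 min kidney (-0.14 to -0.16). Mrps35 was lower by -0.28 at 16 min (adjusted p = 0.0189) and -0.34 at 30 min (SE 0.08, adjusted p = 0.00099). The 16 min call was lost without quantile normalization (-0.21), on the TPM scale (-0.20) and without the first sham kidney or the first or second 16 min kidney (-0.23 to -0.24). Mrps31 was lower by -0.33 at 30 min (SE 0.11, adjusted p = 0.0189), but not without the first sham kidney (-0.24), the third 30 min kidney (-0.21) or quantile normalization (-0.23), or on the TPM scale (-0.24). Mrps21 had 219, 207 and 231 FPKM at 0 min, 278, 260.0 and 237 FPKM at 16 min and 188, 165 and 148 FPKM at 30 min, and these groups did not overlap. It was higher by 0.27 at 16 min (SE 0.08, adjusted p = 0.0238) and lower by -0.22 at 30 min (adjusted p = 0.0253). The first call was lost without the first or second sham or the first or second 16 min kidney (0.21 to 0.26) and without quantile normalization (0.24), and the second without the third sham or the second or the third 30 min kidney (-0.16 to -0.19).

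Mrps36 was above sham from 16 to 26 min and fell at 30 min. Despite its name, its protein is known as a part of the 2-oxoglutarate dehydrogenase complex of the citric acid cycle and is not in the structures of the ribosome. Its kidneys had 97.3, 87.0 and 89.2 FPKM at 0 min, 127, 105 and 110 FPKM at 16 min, 87.2, 90.2 and 90.2 FPKM at 28 min and 75.8, 65.0 and 62.1 FPKM at 30 min. It was higher than sham by 0.28 at 16 min (SE 0.07, adjusted p = 0.00884) and 0.20 at 26 min (adjusted p = 0.0411), differed by -0.07 at 28 min (adjusted p = 0.421) and was lower by -0.42 at 30 min (adjusted p = 4.23e-05). The call at 16 min was lost without the second sham kidney (0.25, adjusted p = 0.0538) or the first 16 min kidney (0.21, adjusted p = 0.0646). The call at 26 min was lost without the second or the third sham or the first or second 26 min kidney (0.15 to 0.20), and with a pseudocount of 0.1 (adjusted p = 0.0657). The genome holds 3 pseudogenes named after Mrps36, with which it may share reads.

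Mrps6 was the most variable member within groups, with a spread among kidneys of 0.33 on the log2 scale. Its kidneys had 140.4, 151 and 266 FPKM at 30 min and 114, 65.3 and 129 FPKM at 26 min, against 146, 106 and 135 FPKM at 0 min. The difference at 30 min was 0.59 (95% interval 0.05 to 1.13, adjusted p = 0.0615). Mrps6 shares 159 exon bases with Slc5a3, the myo-inositol transporter gene, on the same strand. Slc5a3 had 16.5, 17.5 and 52.0 FPKM in the same 30 min kidneys and 10.3, 5.71 and 15.1 FPKM in the same 26 min kidneys, so that both genes were at their highest in the third 30 min kidney. The part of Slc5a3 reads in the level of Mrps6 was not tested.

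Between 26 and 16 min, no member was called in either direction, nor any other gene of the table (0% higher and 0% lower). At an unadjusted p under 0.05 there were 4 members, and the median member differed by 0.01. The count stayed at 0 under the 8 other settings and without each of the 6 kidneys in turn, where 1 to 12 members had an unadjusted p under 0.05. From 26 to 28 min, 10 members were higher and 2 lower, 12.8% and 2.56%, where 10.8% of all genes were higher and 8.52% lower. The 10 included Mrpl33 at 0.97 (SE 0.19, adjusted p = 0.00158), Mrpl52 at 0.58 (adjusted p = 0.00434), Mrps18b at 0.52 (adjusted p = 0.0058), Mrpl14 at 0.33 (adjusted p = 0.00356) and Mrps10 at 0.32 (adjusted p = 0.00408). The 2 lower members were Mrps36 at -0.27 (adjusted p = 0.0109, and 0.0658 without the second 26 min kidney) and Mrpl42 at -0.17 (adjusted p = 0.0471), whose call was lost without any of the 6 kidneys except the second 28 min kidney (-0.14 to -0.19). The Mrpl42 call was also lost with the replicate number as a block (adjusted p = 0.0534), the 1 FPKM filter (0.0552), the trend in the moderation (0.0567), a pseudocount of 0.1 (0.0882) and only the 2 times (0.0585). The 12 calls became 6 without the second 26 min kidney (6.27% of all genes higher and 4.99% lower) or the third 28 min kidney (7.05% and 5.51%). They became 7 without the first 28 min kidney (7.49% and 5.84%). With the 1 FPKM filter, 10 members were higher and 1 lower, against 15.1% and 12.2% of the genes passing it. The share of higher members was then below that of these genes.

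From 28 to 30 min, 0 members were higher and 16 lower, 20.5% of the 78, where 6.47% of all genes were higher and 6.77% lower. The median member differed by -0.14. Fitted on the kidneys of 28 and 30 min alone, 0 members and 0% of all genes were called, with 18 members at an unadjusted p under 0.05. In the fit of all kidneys, Mrpl21 was lower by -0.42 (SE 0.10, adjusted p = 0.00792), Mrps22 by -0.41 (adjusted p = 0.00622), Mrps36 by -0.35 (adjusted p = 0.00374), Mrps16, the homolog of bacterial S16, by -0.34 (adjusted p = 0.0101) and Mrpl47 by -0.33 (adjusted p = 0.0428). The Mrpl47 call was lost with the replicate number as a block (adjusted p = 0.0519), with a pseudocount of 0.1 (0.0554), without any of the 3 kidneys of 28 min and without the second 30 min kidney (-0.31 to -0.38). Of the exon bases of Mrpl47, 13.9% lie in exons of Ndufb5 and 10.2% in exons of Actl6a, both on the opposite strand. The Mrps16 call was also lost without the second 28 min kidney (-0.31, adjusted p = 0.0501). Without the third 30 min kidney only 3 of the 78 were lower, with a median of -0.06, where 2.36% of all genes were lower and 2.5% higher, near the share of the members. Of these 5 genes, Mrps36 alone was still called, and the others differed by -0.31 (Mrpl21), -0.34 (Mrps22), -0.27 (Mrps16) and -0.18 (Mrpl47). The 16 calls became 8 without the second 28 min kidney (3.62% of all genes lower) or the third (3.46%). They became 27 without the first 30 min kidney, where 9.08% of all genes were higher and 8.82% lower. This comparison therefore rested in large part on the third 30 min kidney. Against 16 min, 30 min kidneys had 8 members higher and 16 lower, 10.3% and 20.5%, where 22.5% of all genes were higher and 18.1% lower. Without the third 30 min kidney the counts were 15 and 12 (20.9% and 16.7% of all genes). Fitted on the kidneys of 16 and 30 min alone they were 3 and 5 (9.08% and 8.95%).

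Members can also be divided by descent. Of 46 members with a bacterial homolog, 24 were higher and 2 lower at 28 min and 11 were higher and 4 lower at 30 min, with medians of 0.20 and 0.06. Of 31 members classed as particular to mitochondria, 17 were higher and 0 lower at 28 min and 13 were higher and 8 lower at 30 min, with medians of 0.21 and 0.12. These 31 include Mrps18a and Mrps18b, which are related to bacterial S18 and were higher at both times. Of that family only Mrps18c was counted as a bacterial homolog, so that the classes do not follow descent strictly. Of all genes, 24.5% were higher and 23.6% lower at 28 min and 26.9% and 25.4% at 30 min, and the 23.9% of members with a bacterial homolog that were higher at 30 min lay below that share. The 2 classes were not tested against each other. There are 5 further subunits with other names, and 2 of them, Chchd1 (0.56, adjusted p = 3.08e-07) and Gadd45gip1 (0.45, adjusted p = 0.00155), rose at 28 min. At 30 min these 2 were higher, and Ptcd3 (-0.37, adjusted p = 0.00322) and Dap3 (-0.14, adjusted p = 0.0315) were lower.

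Genes that build and serve the mitochondrial ribosome were counted in the same way. The counts that follow stand against 24.5% of all genes higher and 23.6% lower at 28 min and 26.9% and 25.4% at 30 min. Of 25 genes for its assembly and for the modification of its RNA, 2 were higher and 3 lower at 28 min and 1 was higher and 14 lower at 30 min, with a 30 min median of -0.18. The largest decrease was that of Mtg2, a GTPase of large subunit assembly, at -0.36 (adjusted p = 0.00254) at 28 min and -0.70 (adjusted p = 2.03e-06) at 30 min. Tfb1m, which methylates the small ribosomal RNA, was lower by -0.67 at 30 min (adjusted p = 0.000245). Rcc1l, also an assembly factor, was the single gene of the list higher at 30 min, at 0.28 (adjusted p = 0.00713).

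Of 15 mitochondrial translation factors, 2 were higher and 6 lower at 28 min, and 1 was higher and 10 lower at 30 min, with a 30 min median of -0.25. The initiation factor Mtif3 was lower by -0.54 at 28 min (adjusted p = 8.79e-06) and -0.74 at 30 min (adjusted p = 1.25e-07), and the recycling factor Gfm2 by -0.37 (adjusted p = 0.00724) and -0.79 (adjusted p = 4.08e-06). The elongation factor Tsfm was higher, by 0.42 (adjusted p = 0.000391) and 0.37 (adjusted p = 0.000914). Of 20 genes that charge mitochondrial transfer RNAs, 4 were higher and 5 lower at 28 min and 2 were higher and 12 lower at 30 min. Gatb, a subunit of the amidotransferase that makes glutaminyl transfer RNA, had 29.2, 31.3 and 26.3 FPKM at 0 min, 13.7, 15.0 and 13.4 FPKM at 28 min and 10.8, 10.6 and 8.64 FPKM at 30 min. It fell by 1.12 at 28 min (adjusted p = 3.72e-09) and by 1.53 at 30 min (adjusted p = 3.62e-11), and its groups did not overlap. Sars2, the seryl transfer RNA synthetase, was higher by 0.46 (adjusted p = 3.68e-05) and 0.50 (adjusted p = 9.36e-06).

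Of 10 genes for mitochondrial DNA upkeep and transcription, 2 were higher and 3 lower at 28 min, near the shares of all genes, and 1 was higher and 5 lower at 30 min. Tfam, which packages mitochondrial DNA, was lower by -0.47 at 30 min (adjusted p = 1.04e-05), and Ssbp1, which binds its single strands, was higher by 0.35 at 28 min (adjusted p = 0.0052) and 0.27 at 30 min (adjusted p = 0.0238). Of 9 regulators of mitochondrial genes, 3 were higher and 3 lower at 28 min and 3 were higher and 4 lower at 30 min. Ppargc1a, the coactivator that drives the formation of mitochondria, had 19.3, 16.9 and 14.1 FPKM at 0 min and 7.10, 7.96 and 7.44 FPKM at 28 min, a fall by 1.17 (adjusted p = 6.64e-05). Its relative Pprc1 went the other way, from 2.52, 3.06 and 4.68 FPKM to 10.9, 11.9 and 11.2 FPKM at 28 min, a rise of 1.35 (adjusted p = 2.1e-06). Myc rose from 5.16, 3.24 and 4.11 FPKM to 27.6, 28.9 and 32.4 FPKM at 28 min, by 2.42 (adjusted p = 4.82e-06).

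Cytosolic ribosomal proteins and oxidative phosphorylation subunits are set beside the members. At 16 min their counts stand against 9.43% of all genes higher and 9.61% lower, and at 28 and 30 min against the shares given above. Of 81 cytosolic ribosomal protein genes, 44 were higher and 1 lower at 16 min, 76 were higher and 1 lower at 28 min, and 75 were higher and 1 lower at 30 min, with medians of 0.24, 0.79 and 0.72. The 1 lower gene in each case was Rpl3l, a form known from muscle, at -0.96 at 28 min (adjusted p = 3.48e-05). Of 77 nuclear genes for subunits of oxidative phosphorylation, the complexes that hold the proteins made by mitochondrial ribosomes, 6 were higher and 1 lower at 16 min, 4 were higher and 52 lower at 28 min, and 2 were higher and 60 lower at 30 min, with medians of 0.00, -0.32 and -0.37. The genes that mitochondrial DNA itself encodes were not analysed here. Per kidney at 28 min, the median over each list lay between 0.79 and 0.82 for cytosolic ribosomal proteins, between 0.18 and 0.25 for Mrpl, between 0.15 and 0.18 for Mrps and between -0.35 and -0.27 for oxidative phosphorylation. In each kidney of 28 and 30 min both member medians lay between those of the other 2 lists. In the third 30 min kidney they were -0.09 for Mrpl and -0.05 for Mrps.

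**Figure D4:**
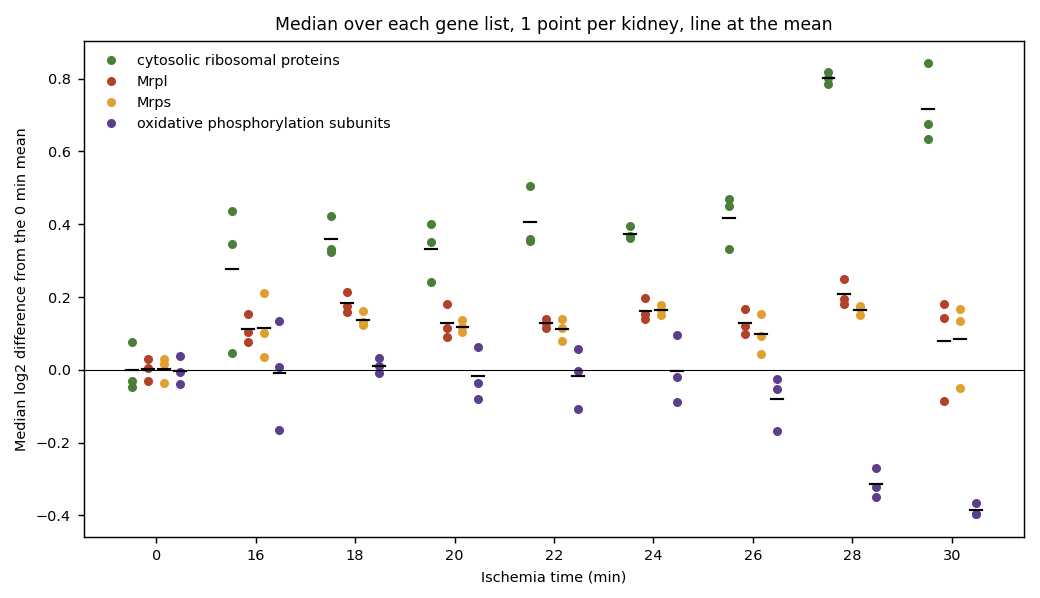
Median log2 difference from the 0 min mean (vertical axis) over 4 gene lists in each of 27 kidneys (points, with a line at the mean of 3) by ischemia time in min (horizontal axis). Cytosolic ribosomal proteins step up to a mean of 0.80 at 28 min, oxidative phosphorylation subunits step down to -0.31, and Mrpl and Mrps stay between 0.08 and 0.21 on average at all ischemia times.

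Markers of cell types moved over the same groups. The 10 proximal tubule markers summed to 5174 to 5658 FPKM at 0 min, 1956 to 2196 FPKM at 28 min and 1200 to 1379 FPKM at 30 min, with 7 and 9 of the 10 called lower. The 3 injured tubule markers Havcr1, Lcn2 and Krt20 summed to 12.2 to 86.8 FPKM at 0 min, 2130 to 2251 FPKM at 28 min and 2498 to 4903 FPKM at 30 min, all 3 higher. Those of neutrophils summed to 5.04 to 9.75 FPKM at 0 min, 14.5 to 17.8 FPKM at 28 min and 18.7 to 27.2 FPKM at 30 min, with 2 and 3 of 4 higher, and those of macrophages to 53.2 to 63.3 FPKM at 0 min, 52.0 to 58.8 FPKM at 28 min and 55.3 to 89.9 FPKM at 30 min. The 4 fibroblast markers summed to 31.1 to 33.9 FPKM at 0 min, 50.3 to 67.9 FPKM at 16 min and 66.3 to 90.1 FPKM at 26 min, with 1 and 2 of 4 higher, and to 45.2 to 65.9 FPKM at 28 min. The 3 thick ascending limb markers summed to 1566 to 1737 FPKM at 0 min and 523 to 782 FPKM at 28 min, all 3 lower. The 30 min kidneys were uneven for this list, at 504 to 2190 FPKM, and reached both below and above the sham kidneys. Collecting duct markers were uneven too, at 222.6 to 578.4 FPKM at 30 min against 270.1 to 429.1 FPKM at 0 min. At 30 min, endothelial markers summed to 79.2 to 123 FPKM (56.8 to 68.8 at 0 min), with 3 of 4 higher, and erythroid markers to 570.4 to 1034 FPKM (101 to 442 at 0 min), with 3 of 3 higher. No marker of these lists was at 0 in all 27 kidneys. The part of these cell types in the levels of the members was not tested.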

How the data were processed

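RNA-Seq was performed on the left kidney of 27 mice, 3 at each of 9 ischemia times. The authors deposited 1 table of FPKM values per gene and kidney; the submitters' processing notes name Bowtie2, RSEM and the mouse build GRCm38.p6, without versions, and the gene annotation and the use of strand in counting are not given in the sources used here. RSEM divides reads shared by near-identical genes between them, and 5 pseudogenes are named after members (1 each of Mrpl23 and Mrpl48, 3 of Mrps36). The study lists quantile normalization, log2 transformation and limma; the added 1, the order of the first steps and the model were chosen here. Values of log2(FPKM + 1) were quantile normalized and tested with limma 3.58.1 (R 4.3.3) in a single model of all 27 kidneys with a mean for each time, empirical Bayes moderation and Benjamini-Hochberg adjustment. The 18188 genes tested had an FPKM above 0 in 3 or more kidneys. The 12 comparisons were each ischemia time with 0 min, 26 with 16, 28 with 26, 30 with 28 and 30 with 16 min. A gene was called at an adjusted p under 0.05. Background correction and median polish, which the study also lists, were not applied. Read counts were not used and the depth is unknown, so that no counting interval is given. Nothing in the labels beyond the replicate numbers says how the mice of a group were handled, so that p-values measure the spread among these kidneys.

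Alternatives were a pseudocount of 0.1, no quantile normalization, TPM, a filter of 1 FPKM in 3 kidneys, no filter, only the kidneys of the times compared, a trend in the moderation, the replicate number as a block, and leaving out each kidney in turn. Named members were, in 16, 26, 28 and 30 min against 0 min, 28 against 26 and 30 against 28 min, the 5 with the largest increase and decrease among those called, all with an absolute log2 fold change above 1, the 4 highest and 3 lowest levels of each subunit, and 12 landmark genes; of each other list, genes were taken from the 3 largest increases and decreases among those called at 28 and 30 min. Other members named for a count or an overlap were chosen after their values were seen. Members, roles and lists were chosen with earlier results of these data known. Promoter windows are from RefSeq (GRCm38.p6) and gene positions from GENCODE M21; 69 of 78 members had a window. Figures were drawn with matplotlib 3.10.9.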

Additional observations from a re-analysis of the deposited data

Results flagged for a closer look

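For 3 members the effect of ischemia against sham went in opposite directions at 16 and 30 min, each called. The comparison of 30 with 16 min was called as well, but in the same fit it is the difference of these effects. Its call therefore follows from the opposite calls by which the members were picked. The adjusted p-values below are no further evidence for the change of direction. Mrps36 was higher at 16 min and lower at 30 min, and 30 min kidneys lay below 16 min kidneys by -0.70 (limma, adjusted p = 2.01e-07). Mrps21 differed between 30 and 16 min by -0.48 (limma, adjusted p = 5.6e-05), and Mrpl42 by -0.40 (limma, adjusted p = 2.34e-05). All 3 of the 30 min kidneys were below all 3 of the 16 min kidneys for each gene. The higher calls at 16 min of all 3 genes were lost without the first 16 min kidney, at 0.21 for Mrps36, 0.21 for Mrps21 and 0.13 for Mrpl42. With 3 kidneys per group, no kidney was tested as an outlier.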

How the results depend on the processing

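Of 2296 checks of the 164 calls made for 36 named members, none changed sign. Without leaving out kidneys, 1187 calls held and 125 were lost, 58 of them where only the kidneys of the 2 times compared were used. When a kidney was left out, 755 calls held and 229 were lost. The pseudocount of 0.1 lost 20 calls, no quantile normalization 16, TPM 11, the trend 8, the 1 FPKM filter 8, the replicate block 4 and no filter 0. The counts of members called that moved by over 1.5 times were these. At 16 min against 0 min (23), there were 36 with TPM and 0 with only the 2 times. At 20 min (18), there were 35 without quantile normalization and 36 with TPM, and at 26 min (21) 34 and 42 in that order. The share of all genes called higher rose as well under these scalings. It went from 9.43% to 17.4% at 16 min, from 10.7% to 16.9% and 17.2% at 20 min, and from 14.9% to 22.4% and 24.9% at 26 min. The share called lower fell, to between 4.96% and 9.35%. With only the 2 times, there were 19 members at 30 min against 0 min (37), 8 at 30 against 16 min (24) and 0 at 30 against 28 min (16). The causes of these moves were not tested. Leaving out each kidney gave 6 to 29 calls at 16 min, 22 to 30 at 18 min, 10 to 17 at 20 min, 17 to 23 at 22 min, 22 to 28 at 24 min, 13 to 20 at 26 min, 36 to 41 at 28 min and 27 to 39 at 30 min against 0 min, 6 to 12 at 28 against 26 min, 3 to 27 at 30 against 28 min and 22 to 29 at 30 against 16 min. The shares of all genes moved in these fits as well, from 4.51% to 13.7% higher at 16 min against 0 min. The scalings moved the median of all genes by less than 0.1.

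The replicate numbers did not pair the kidneys: residuals of kidneys with the same number correlated between -0.42 and 0.48 (median -0.01, 25 of 108 pairs over 0.1), and those with different numbers between -0.52 and 0.52. With the replicate block, 44 members were called at 28 min against 0 min, 34 at 30 min and 23 at 16 min, and no count moved by over 1.5 times.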
